A study of Mus musculus with 8 samples.

Results

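The experiment described here set the normal heart of the newborn mouse against RNA of adult tissues, on the 4 arrays labelled wildtype of the 8 arrays in the series. All 4 arrays of that group were taken and no value was used to choose them. Each array carried Cy3-labelled cDNA from a pool of 3 neonatal hearts of wildtype C57BL mice, with no substrain and no day after birth in the labels. The other dye, Cy5, held 1 reference that had been prepared once for the whole study from 10 adult tissues of male and female C57BL mice: aorta, brain, heart, kidney, liver, lung, ovary and testicles, spleen and stomach. Dyes were not swapped, so a dye effect that is the same on every array stays in each ratio. The 4 arrays are pools of different hearts against the same reference RNA, so errors and p-values hold the spread between heart pools and arrays and none from the reference. The 4 connexin43 null arrays were not used.

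A heart at birth is finishing its growth by division of muscle cells and turning to growth in cell size. Its muscle cells already contract by myosin sliding along actin within sarcomeres, driven by calcium released from the sarcoplasmic reticulum. In the weeks around birth the heart also shifts its fuel from glucose and lactate towards fatty acids, and genes of fetal growth, several of them imprinted (read from the copy of 1 parent), are turned down in most organs. Adult heart RNA was itself part of the reference, so a gene read only in heart was present in both dyes. In RNA of whole tissue, fewer cells of a type and less RNA per cell cannot be told apart.

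Values below are log2 ratios of heart over reference, so 1 is a 2-fold higher and -1 a 2-fold lower signal in heart, after each array was centred on the median of its spots. Per gene, the values of its spots were averaged on each array, and a gene entered with a value on at least 3 arrays. This left 8174 genes of 10225 symbols on the array, of which 6124 were measured on 4 arrays and 2050 on 3. Per gene, values are printed for replicates 1 to 4 in that order, and the error is the SD over arrays or limma's standard error (SE). A gene is called higher or lower where limma's moderated test against 0 gave a Benjamini-Hochberg adjusted p under 0.05 over all 8174 genes.

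The labels do not say which dye is the numerator, and heart was taken as numerator from a rule on 8 heart and 10 plasma protein genes. Of these, 2 or 3 heart genes and 6 plasma protein genes had a value on each array. Their medians were 1.05, 1.19, 1.17 and 1.23 for the heart genes and -2.45, -1.69, -2.16 and -2.23 for the plasma protein genes. Heart genes lay above plasma genes on all 4 arrays, and the signs of these genes (among them Myl7, Tnnc1, Alb, Fgb and Apoa1) are therefore no finding. The sign of every other ratio rests on the same choice. That other heart muscle genes lie high and other liver genes low is thus not independent of the rule.

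The arrays differed in how much they measured. Of 28704 spots, 45.2, 74.0, 64.0 and 83.4% had a value on replicates 1 to 4. Replicate 1 had the fewest values and the widest spread, with an interquartile range of 0.69 against 0.43 to 0.49 on the others. Over genes, its Pearson correlation with the other arrays was 0.57 to 0.72, and that among the others was 0.72 to 0.82, as a description of arrays that share 1 reference. Signal intensities were not analysed here, so the depth behind a ratio is unknown.

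The ratios ran from -3.23 for Tnp1, a transition protein that packs sperm DNA, to 2.73 for Mest, an imprinted gene of fetal growth. The bulk lay near 0: the median was 0.00, the middle 50% of genes lay between -0.21 and 0.21, and 96.2% lay within 1 of 0. The low side reached further than the high side. There were 251 genes at -1 or lower and 62 genes at 1 or higher, and 45 genes at -2 or lower against 3 at 2 or higher.

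Of the 8174 genes, 1069 were called higher in heart (13.1% of genes tested) and 1173 lower (14.4%). In 2217 of these 2242 calls (27.4% of genes tested) every measured array lay on the called side of 0. Counts of list members below are to be read beside the 13.1% and 14.4% of all genes. The split of calls rests on the centring: from the deposited values without centring 217 genes were higher and 829 lower, which brought the share of higher genes among calls from 47.7% to 20.7%. In limma's test against a 2-fold change, 7 genes were called more than 2-fold higher (0.0856%) and 70 more than 2-fold lower (0.856%). Where the prior variance was let vary with the mean ratio, that test called 0 genes higher and 16 lower, so that no gene below is more than 2-fold higher under this setting. The 16 lower genes include Tnp1, Bhmt, Tff2 and Scgb1a1 and do not include Hspa2, Gpm6b or Lyz2. Leaving out replicate 4 gave 407 higher and 560 lower calls, and leaving out replicate 2 gave 529 higher and 736 lower.

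**Figure D1:**
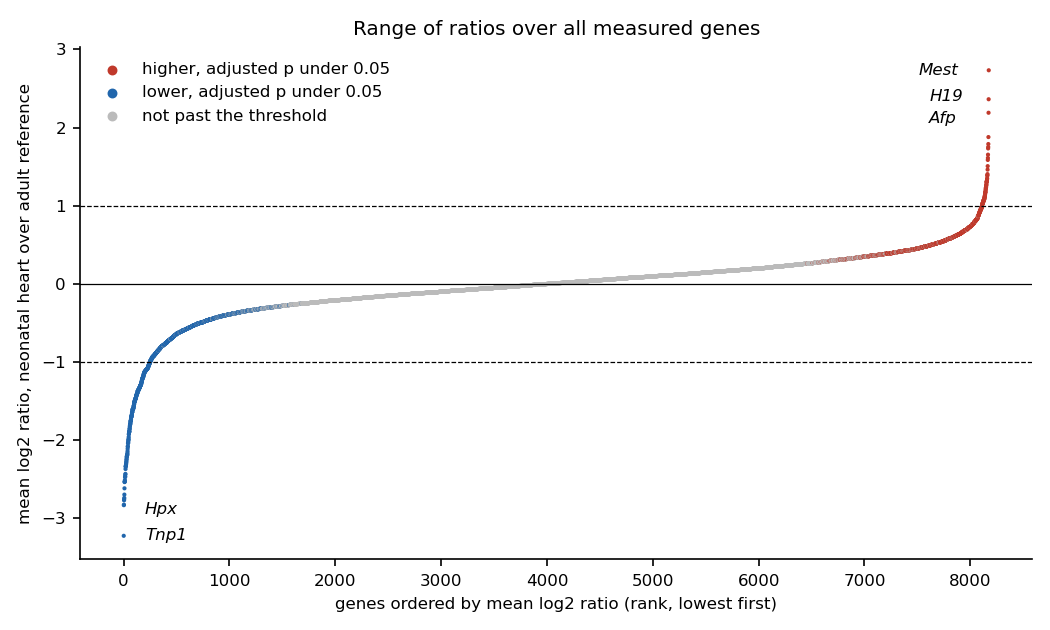
Mean log2 ratio of neonatal heart over adult reference (vertical axis) for the 8174 measured genes, ordered from lowest to highest (horizontal axis). Points are genes, in red where called higher, in blue where called lower and in grey otherwise, with dashed lines at a 2-fold difference. The curve falls further below -1 (251 genes) than it rises above 1 (62 genes).

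The ends of the range differed in what they held. Of the 100 lowest genes, which lay at -1.54 or below, 42 were in the organ lists and 0 in the heart lists. Organ lists are those of liver, testis, brain, glia, lung, stomach, kidney, gonad, spleen and fat, and the plasma protein genes of the direction rule. The 42 thus include 4 genes of that rule, whose signs are no finding. Of the 100 highest genes, which lay at 0.87 or above, 24 were in heart lists, 9 in development lists, 9 in matrix lists and 2 in organ lists. The 24 include Myl7 and Tnnc1, which are also genes of the direction rule. The share of all measured genes in these lists was not counted, so the counts compare the ends only. The lists were also chosen with earlier results of these data known. About as many at each end, 50 of the lowest and 49 of the highest, were in no list. Among the lowest 100, 43% were measured on only 3 arrays, against 25.1% of all genes tested, and in 33 of them replicate 3 was the array without a value.

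Promoters of genes from both ends and the middle are shown for 1 motif of muscle genes, the CArG box bound by serum response factor. It and the word CATTCCT were among the motifs that were more frequent in genes with the highest ratios. Each sequence is the 300 bases from 250 before to 50 after the start of the gene in RefSeq on build GRCm38.p6, 5′ to 3′ on the strand of the gene. Capitals mark every match to 16 motifs searched on both strands. Nppb lay at chr4:147985650-147985949 (plus strand), Myl7 at chr11:5898733-5899032 (minus strand), Stbd1 at chr5:92602801-92603100 (plus strand), Cnot9 at chr1:74505810-74506109 (plus strand), Tnp1 at chr1:73015850-73016149 (minus strand) and Hpx at chr7:105600067-105600366 (minus strand). The genes were chosen after their values were seen.
Nppb (mean ratio 1.65): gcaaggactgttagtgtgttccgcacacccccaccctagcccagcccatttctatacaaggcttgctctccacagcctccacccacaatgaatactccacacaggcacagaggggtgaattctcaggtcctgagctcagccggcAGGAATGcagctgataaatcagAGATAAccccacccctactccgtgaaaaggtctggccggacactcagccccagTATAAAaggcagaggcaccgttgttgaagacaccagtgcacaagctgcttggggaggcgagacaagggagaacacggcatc
Myl7 (mean ratio 1.46): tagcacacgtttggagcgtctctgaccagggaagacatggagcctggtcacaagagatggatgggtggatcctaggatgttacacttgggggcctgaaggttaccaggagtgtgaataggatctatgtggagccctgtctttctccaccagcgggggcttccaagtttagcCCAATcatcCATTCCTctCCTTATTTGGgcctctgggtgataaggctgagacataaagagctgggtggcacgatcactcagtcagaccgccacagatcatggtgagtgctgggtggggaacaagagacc
Stbd1 (mean ratio 1.40): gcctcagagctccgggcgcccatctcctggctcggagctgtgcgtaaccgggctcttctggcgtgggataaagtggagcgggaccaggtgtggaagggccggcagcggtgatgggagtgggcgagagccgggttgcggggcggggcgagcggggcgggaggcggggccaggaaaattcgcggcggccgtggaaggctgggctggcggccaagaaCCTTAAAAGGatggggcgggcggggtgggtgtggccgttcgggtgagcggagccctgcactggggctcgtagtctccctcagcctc
Cnot9 (mean ratio 0.00): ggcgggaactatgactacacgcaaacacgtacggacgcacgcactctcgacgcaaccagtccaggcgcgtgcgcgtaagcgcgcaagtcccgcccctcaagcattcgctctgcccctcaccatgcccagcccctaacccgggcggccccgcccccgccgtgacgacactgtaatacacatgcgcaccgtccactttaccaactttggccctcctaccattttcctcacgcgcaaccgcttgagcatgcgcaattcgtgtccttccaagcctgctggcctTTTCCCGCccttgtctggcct
Tnp1 (mean ratio -3.23): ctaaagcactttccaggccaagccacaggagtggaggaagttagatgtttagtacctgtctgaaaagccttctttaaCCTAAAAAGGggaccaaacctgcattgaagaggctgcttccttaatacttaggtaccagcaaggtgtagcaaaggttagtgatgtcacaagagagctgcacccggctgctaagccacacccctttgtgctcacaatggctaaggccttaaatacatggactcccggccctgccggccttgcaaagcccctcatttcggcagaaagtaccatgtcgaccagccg
Hpx (mean ratio -2.84): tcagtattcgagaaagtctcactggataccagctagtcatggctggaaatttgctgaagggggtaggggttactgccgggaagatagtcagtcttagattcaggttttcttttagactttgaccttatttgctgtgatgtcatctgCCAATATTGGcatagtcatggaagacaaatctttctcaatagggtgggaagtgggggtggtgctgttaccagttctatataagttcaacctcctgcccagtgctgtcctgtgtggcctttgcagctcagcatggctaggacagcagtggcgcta
In the Nppb sequence the capitals are the words CATTCCT (on the opposite strand), AGATAA and TATAAA. In those of Myl7 and Stbd1 they include a CArG box, and Myl7 also holds CCAAT and CATTCCT. Tnp1 and Hpx, from the low end, hold a CArG box too, and the Hpx match overlaps CCAAT on both strands. In Cnot9 the capitals are TTTCCCGC, and its sequence holds 30 CpG against 28 in Stbd1, 7 in Nppb, 5 in Myl7, 6 in Tnp1 and 3 in Hpx.

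Over the 6540 measured genes with a promoter in the table, the CArG box stood in 14 of 327 promoters (4.28%) of the highest 5% of ratios. It stood in 7 of 327 (2.14%) of the lowest 5%, in 1.39% of all measured genes and in 1.57% of all 27025 promoters of the same length. By list, it stood in 3 of 14 promoters of sarcomere genes, 2 of 9 of smooth muscle and 1 of 11 of cell contact genes. It was in 0 of 10 for calcium cycling, 0 of 11 for skeletal muscle and 0 of 9 for cardiac transcription factors. The site of MEF2 factors, another motif searched, was in 2 of 327 promoters (0.61%) of the highest 5% and in 0.57% of all promoters. The word CATTCCT was in 22 of 327 promoters (6.73%) of the highest 5% and in 3.36% of the lowest 5%. Its share was 3.76% in measured genes and 5.28% in all promoters. In the lowest 5%, the word TATAAA was in 11.6% of promoters, against 7.29% of measured genes and 14.2% of all promoters. The word CCGGAAG, a core of ETS factor sites, was in 21.0% of promoters in the middle 50% of ratios, in 8.56% in the lowest 5% and in 10.1% in the highest 5%, against 9.12% of all promoters. The observed over expected count of CpG had a median of 0.51 in the lowest 5%, 0.80 in the middle 50% and 0.70 in the highest 5%. It was 0.77 over measured genes and 0.39 over all promoters, so the lowest 5% lay above promoters at large. The shares are descriptions with no test, and a match is not a bound site.

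**Figure D2:**
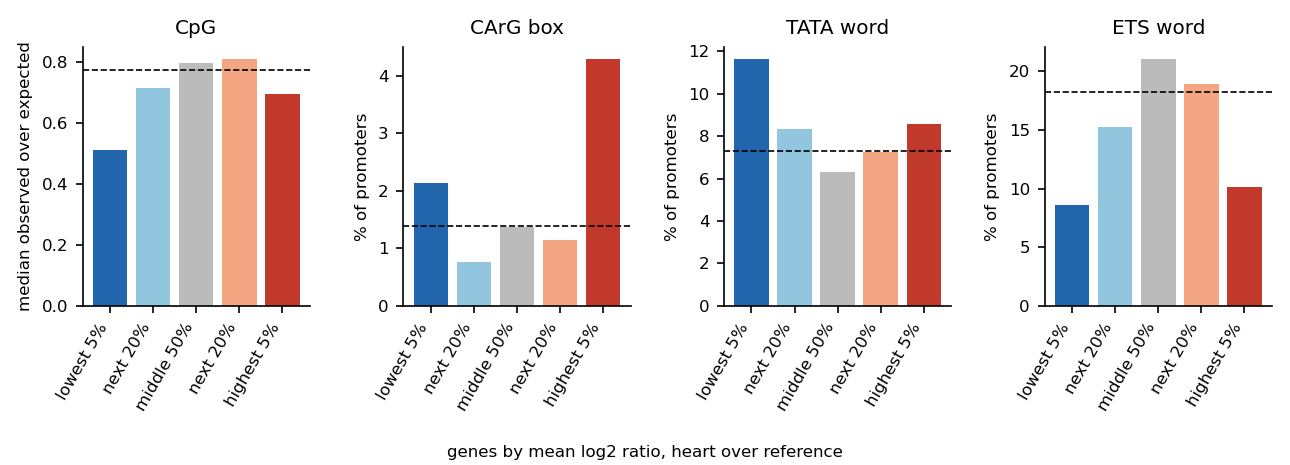
Promoter features by ratio, for 5 groups of the 6540 measured genes with a promoter, from the lowest 5% (blue) to the highest 5% of mean log2 ratios (red). Bars are the median observed over expected CpG and the share of promoters with a CArG box, TATAAA or CCGGAAG, and dashed lines give the value over all measured genes. The CArG box bar is highest in the highest 5% (4.28%), and CpG is lowest in the lowest 5% (0.51).

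At the very top stood Mest, a hydrolase gene read from the paternal copy in the embryo. Its ratios were 3.36, 2.59, 2.46 and 2.52, and the mean of 2.73 (SE 0.15, n = 4) is 6.65-fold (adjusted p = 5.61e-05, limma). Replicate 1 was the highest and the other 3 arrays lay close together. The noncoding RNA H19, read from the maternal copy, came next with 2.63, 2.46, 1.55 and 2.81, a mean of 2.36 (SE 0.19, n = 4), and its 5 probes had means of 2.10 to 2.65. Plagl1, an imprinted zinc finger gene, was at 1.93, 1.43, 1.82 and 1.83, a mean of 1.75 (SE 0.10). Grb10, an imprinted adaptor that restrains insulin signalling, was at 2.42, 2.00, 0.91 and 1.82, a mean of 1.79 (SE 0.22). The 0.91 on replicate 3 averages 1.63 on 1 probe with 0.19 on another that has values on replicates 3 and 4 only. Mest, H19 and Plagl1 were called more than 2-fold higher, and Grb10 was not (adjusted p = 0.238 in the 2-fold test).

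Of the 23 measured genes of the imprinted and fetal growth list, 8 were higher and 2 lower, with a median of 0.30. Igf2, the fetal growth factor that neighbours H19, had a mean of 1.02 (SE 0.11), but its probes disagreed: 1 probe averaged 2.33 over 4 arrays and another -0.16 over 4 arrays. Igf2r, the receptor that clears Igf2, was at 2.39, 1.07, 0.55 and 1.20. The 0.55 on replicate 3 averages in a probe measured there alone (0.03), and the probe measured on all arrays gave 1.07 on it. Airn, the RNA read against Igf2r, was at 0.59, 0.84, 0.96 and 0.85. These genes overlap on opposite strands, and the strand their probes read is not given in the sources used here. Peg3 was higher at 0.68, while Ndn (-0.21) and Meg3 (0.43) did not pass the test. The list is thus not uniform. Igf1, the growth factor that liver and other tissues make after birth, was lower at -0.70, -0.75, -0.42 and -0.66, a mean of -0.63 (SE 0.09, adjusted p = 0.00274).

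Afp, the alpha-fetoprotein of fetal liver and yolk sac, stood far above the reference. Its ratios of 2.28, 2.07, 2.29 and 2.12 gave a mean of 2.19 (SE 0.09, n = 4), or 4.56-fold (adjusted p = 3.55e-05; 0.000925 in the 2-fold test). The arrays lay within 0.22 of each other. On the same arrays Alb, the gene of albumin, the neighbour of Afp on its chromosome, was at -2.99, -1.99, -2.36 and -2.41.

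**Figure D3:**
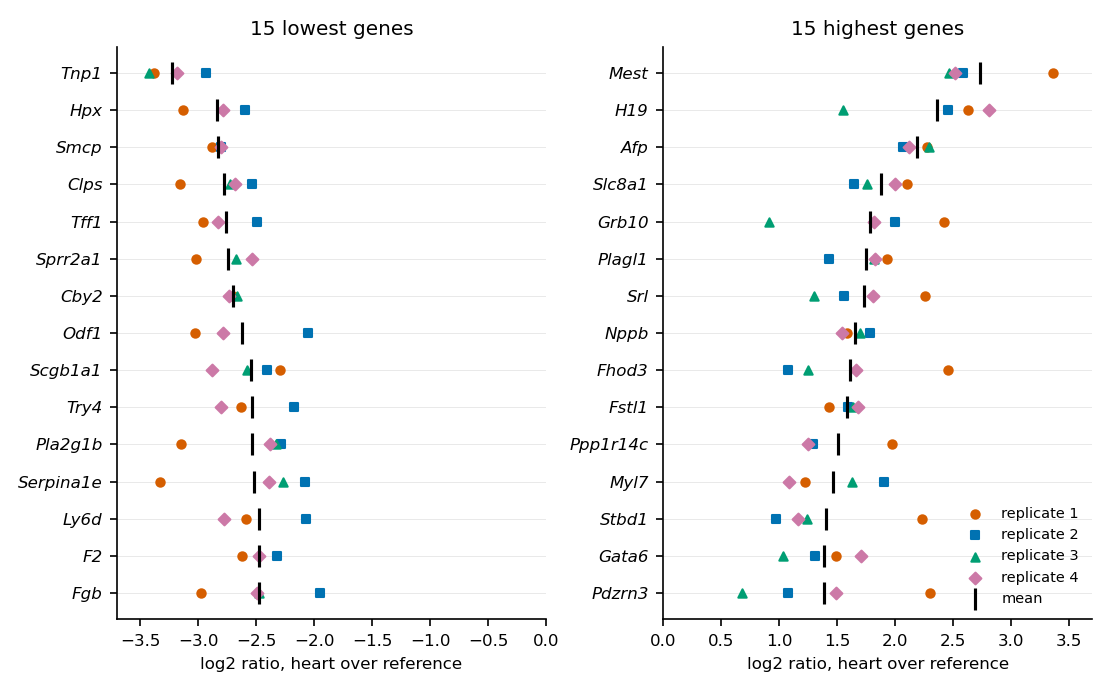
Log2 ratio of heart over reference (horizontal axis) on each array for the 15 lowest and the 15 highest genes among those called with every measured array on 1 side of 0. Points are arrays by replicate, bars are the mean, and a missing point is an array without a value. Tnp1 (-3.23) and Mest (2.73) mark the ends, and replicate 1 is the highest array in Mest, Slc8a1, Grb10, Plagl1, Srl, Fhod3, Ppp1r14c, Stbd1 and Pdzrn3.

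Genes of contraction were higher as a group. Of 17 measured sarcomere genes of heart muscle, 15 were called higher (88.2%, where 13.1% of all genes were) and 0 lower, with a median of 0.73 and list medians of 0.61, 0.83, 0.63 and 0.84 on the 4 arrays. Without Myl7 and Tnnc1, which helped set the direction of the ratio, 13 of 15 were called higher, with a median of 0.59. The sign of these 15 still rests on that direction. Within the list, the highest beyond Myl7 was Actn2, the alpha-actinin that anchors actin at the Z-disc, at 1.35, 1.27, 1.28 and 1.22. Its mean of 1.28 (SE 0.08) is 2.42-fold, with all arrays within 0.13 of each other. Tnnc1, the calcium sensor of the thin filament, was at 0.87, 1.19, 1.17 and 1.38, and Myl7, the atrial regulatory light chain of myosin, at 1.22, 1.91, 1.63 and 1.08. Fhod3, a formin that builds actin filaments in the sarcomere and is not in the list, was at 2.46, 1.08, 1.25 and 1.66 (mean 1.61, SE 0.21). Nexn was at 0.99 and Pdlim5, a Z-disc protein, at 1.08.

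The lowest sarcomere genes were Ttn, the giant spring protein, at -0.32, -0.02, 0.41 and 0.49, Cmya5 at 0.33 and Csrp3 at 0.50. Ttn did not pass the test (adjusted p = 0.491), and its arrays lay on both sides of 0. Probes of a gene also differed here: those of Myl4, the atrial essential light chain, averaged 1.09 and 0.05, and those of Csrp3 1.02 and -0.03. Genes of skeletal muscle were more mixed, with 6 of 12 higher and 0 lower. Tnnt1, the slow troponin T, was at 0.98 and Myh3, the embryonic myosin, at 0.61 (0.63, 0.66, -0.03 and 1.16). Chrna1, the muscle acetylcholine receptor, was at 1.40 on replicate 1 and at -1.22, -1.28 and -1.74 on the others, with a mean of -0.71 that did not pass.

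Genes that move calcium followed, with 9 of 16 higher, 0 lower and a median of 0.52. Slc8a1, the sodium-calcium exchanger of the cell membrane, was at 2.10, 1.65, 1.76 and 2.00. The mean of 1.88 (SE 0.10) is 3.68-fold and was the only one of this list past the 2-fold test (adjusted p = 0.00442), and its 2 probes averaged 1.82 and 1.94. Srl, the sarcalumenin that binds calcium within the sarcoplasmic reticulum, was at 2.26, 1.56, 1.30 and 1.81. Jph2, which holds the sarcoplasmic reticulum to the membrane, was at 1.50, 1.29, 0.67 and 1.47. Casq2, the calcium store protein, was at 1.12, Trdn, which ties it to the release channel, at 1.07, and Pln, the brake on the calcium pump, at 0.97. The pump itself, Atp2a2, was higher by less, at 0.57, 0.43, 0.21 and 0.36, and 1 of its 3 probes (0.82) lay apart from the others (0.07 and 0.19). At the low end Atp2b1 (-0.29), Cacnb2 (-0.19) and Stim1 (-0.17) did not pass.

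All 5 measured genes of the natriuretic peptide and heart hormone list were higher, with a median of 1.03 that is 0.65 when genes with values on only 2 arrays are let in. Nppb, the peptide hormone of stretched heart muscle, was at 1.59, 1.78, 1.70 and 1.54, and its probes averaged 1.67 and 1.63. The mean of 1.65 (SE 0.09) is 3.14-fold and past the 2-fold test (adjusted p = 0.00757). Nppa, the atrial peptide, was at 1.45, 0.10, 1.41 and 1.16, so that replicate 2 lay near 0 and the mean of 1.03 carries an SE of 0.21. Npr3, the receptor that clears both peptides, was at 1.10 (0.95, 1.39 and 0.95 on replicates 2 to 4). Agtr2, the angiotensin receptor of the fetus, was at 0.62 and Pam, which amidates peptides and is abundant in atria, at 0.65.

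Of 17 measured genes of cell contacts, 11 were higher and 0 lower, with a median of 0.48 that is 0.29 on the probe with the fewest missing values. Gja1, connexin43 itself, was at 1.04, 1.31, 0.99 and 0.79 in these wildtype hearts (mean 1.03, SE 0.10, adjusted p = 0.000607). Ctnna1 was at 0.88, with 4 probes between 0.72 and 1.08, and Cdh2, the cadherin of the intercalated disc, at 0.80. Dsg2 (0.15), Ctnna3 (-0.03) and Lims1 (-0.38) did not pass. Of the 5 measured genes in the ion channel list, 3 were higher. They were Bves (1.32) and Popdc2 (1.24), membrane proteins that bind cyclic AMP and steady the heart rate, and Kcnd3 (0.32), a potassium channel. Probes differed, with averages of 1.82, 0.05 and 1.05 for Bves and of 0.74 and 1.74 for Popdc2.

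Among cardiac transcription factors 7 of 14 were higher and 0 lower, with a median of 0.27. Gata6 stood out at 1.50, 1.31, 1.04 and 1.71, a mean of 1.39 (SE 0.12, adjusted p = 0.000311), and its 3 probes averaged 1.11, 1.35 and 1.61. Smyd1, a muscle methyltransferase, was at 0.97, 1.21, 1.15 and 1.14, and Hif1a, the factor stabilised by low oxygen, at 1.19, 0.95, 0.72 and 1.35. Mef2c (0.00), Hand1 (-0.01) and Tbx3 (0.04) had means near 0, the level of the median spot. No probe of Hand1 or Tbx3 had a value on more than 2 arrays, so their means join different probes on different arrays. Gata4 (0.10) did not pass, and its probes averaged -0.87, 0.16 and 0.81.

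**Figure D4:**
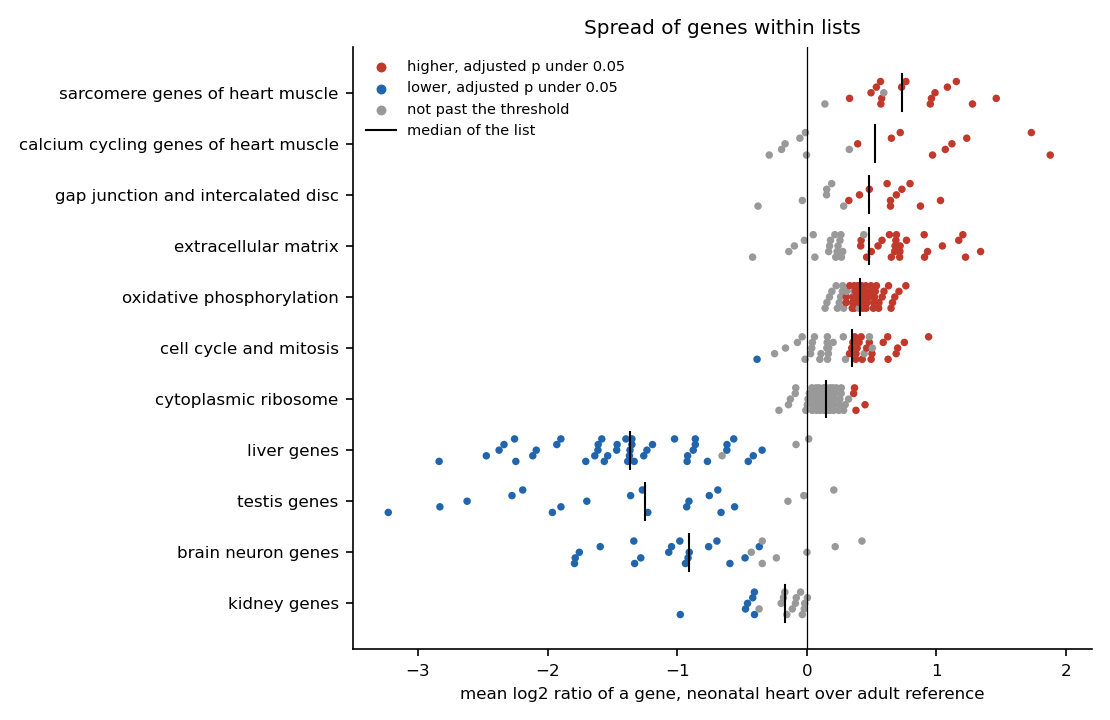
Mean log2 ratio of single genes (horizontal axis) in 11 gene lists (vertical axis). Points are genes, in red where called higher, in blue where called lower and in grey otherwise, and black bars are list medians. Sarcomere genes (median 0.73) and oxidative phosphorylation genes (0.41) lie wholly above 0, and liver genes (-1.36) almost wholly below.

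Genes of dividing cells lay above the reference by small amounts. Of 45 measured cell cycle and mitosis genes, 21 were higher and 1 lower, with a median of 0.35. Kif4, a motor of the mitotic spindle, was at 0.94, and Ube2c, which marks mitotic proteins for destruction, at 0.75. Cenpe, a kinetochore motor, was at 1.25, 0.81, 0.45 and 0.29. Ccna2 was at 0.70, 0.70, 0.42 and 0.95 and Cdk1, its partner kinase, at 0.59, 0.73, 0.37 and 0.82, both named after their values were seen. Nek2, a centrosome kinase, was the lower gene at -0.42, -0.38, -0.62 and -0.12, and Aurka (-0.25) did not pass.

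Of 35 DNA replication genes, 10 were higher and 2 lower, with a median of 0.23. The list medians were -0.01, 0.22, 0.29 and 0.28 on the 4 arrays, with replicate 1 at the reference level, and the median is 0.11 without centring. Rrm2, which makes deoxynucleotides, was at 0.75, Mcm3, part of the replicative helicase, at 0.68 and Gmnn, which prevents a second round of replication, at 0.64. The lower genes were Orc1 (-0.59), of the origin recognition complex, and Rfc2 (-0.53), of the clamp loader. In the chromatin list 11 of 34 were higher and 1 lower. Sox4, a factor of progenitor cells, was at 1.28, 0.56, 1.34 and 1.38 (mean 1.14). On replicate 2 only the lower of its probes had a value, and that probe read 0.86, 0.56, 1.29 and 1.32. Hmgn2, a nucleosome-binding protein, was at 0.79, 1.09, 0.67 and 0.96 (mean 0.88). Nasp, a histone chaperone, was lower at -0.46, and Ezh2 (-0.44) did not pass.

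Of 42 measured genes of the extracellular matrix list, 24 were higher and 0 lower, with a median of 0.48 that is 0.28 on the probe with the fewest missing values. Col4a1, a chain of basement membrane collagen, was at 1.01, 1.41, 1.27 and 1.67 (mean 1.34, SE 0.12, 2.53-fold). Col3a1, a fibrillar collagen, was at 0.90, 1.35, 1.43 and 1.21, and Eln, the elastin of arteries and valves, at 0.50, 1.48, 1.35 and 1.49. In Eln replicate 1 lay well below the other arrays. Of this list, 0 genes passed the 2-fold test upwards, and Sparcl1 (-0.42) and Mfap4 (-0.10) did not pass the test against 0. Fstl1, a secreted glycoprotein of epicardium and stroma, is not in this list. It had close arrays at 1.43, 1.59, 1.64 and 1.68, and its mean of 1.58 (SE 0.09, 3.00-fold) passed the 2-fold test (adjusted p = 0.0116).

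Markers of the heart's other cells went different ways. Of 13 measured endothelial markers 6 were higher and 0 lower, with Emcn at 0.95 (1.67, 0.20, 0.98 and 0.94) and Cav1 at 0.60, while Cldn5 (-0.16) did not pass. Of 11 valve and outflow genes 2 were higher (18.2%, near the 13.1% of all genes), Tgfb2 (0.75) and Nrp1 (0.55), a semaphorin receptor, and 0 lower. The median of this list, 0.25, is 0.07 without centring and 0.01 over genes with a value on all 4 arrays. Of 10 smooth muscle genes 3 were higher and 3 lower. Myl9, a light chain of smooth muscle and nonmuscle myosin, was at 0.86, 0.94, 0.85 and 0.96, but Mylk, the kinase that activates smooth muscle myosin, was at -1.19, -0.71, -0.74 and -1.23 and Smtn at -0.68. Of 9 fibroblast markers 3 were higher, Col3a1, Vim (0.95) and Col1a2 (0.91), and 1 lower, Gsn (-0.50). Of 6 markers of the epicardium 0 were higher and 3 lower, all keratins: Krt19 at -1.52, Krt8 at -0.65 and Krt7 at -0.42. Epithelia of lung, stomach and kidney, which were in the reference, also express these keratins.

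In the list of TGF-beta, BMP, Wnt, Notch and Hedgehog genes 12 of 33 were higher and 1 lower, led by Fstl1, Tgfb2 (0.75) and Ltbp1 (0.72), which stores TGF-beta in the matrix. Of 17 growth factor receptors and ligands 4 were higher and 1 lower, and the median of this list (0.14) falls below 0 without centring. Of 13 hypoxia genes 5 were higher, Hif1a, Pdk1, Pgk1, Egln1 and Bnip3, and 0 lower.

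Genes of oxidative phosphorylation lay above the reference by small amounts. All 55 measured oxidative phosphorylation genes lay above 0, 41 were called higher and 0 lower, with a median of 0.41, or 1.33-fold, and list medians of 0.23, 0.42, 0.59 and 0.46. They ran from 0.14 for Ndufa5 to 0.76 for Ndufs1, both subunits of complex I. Ndufs1 was at 0.64, 0.79, 0.74 and 0.89, and the ATP synthase subunits Atp5b and Atp5a1 had means of 0.71 and 0.68. Of 22 citrate cycle and pyruvate genes 12 were higher and 0 lower. Pdk1, the kinase that shuts off pyruvate oxidation, was at 0.92, 1.00, 0.50 and 1.18, Pdhb, a subunit of the enzyme it acts on, at 0.85, and Got2 at 0.80. Pcx (-0.39), which feeds the cycle in liver, did not pass.

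Of 22 fatty acid oxidation genes 13 were higher and 1 lower. Acadl, a dehydrogenase of long-chain fatty acids, was at 0.92, 0.70, 1.10 and 0.94 (mean 0.92, SE 0.09), and Acadm, that of medium chains, at 0.57. Ucp3, a mitochondrial carrier induced by fatty acids, was lower at -0.55, and Cpt2 (-0.25) did not pass. Of 21 genes of glycolysis and glucose uptake 11 were higher and 1 lower. Gys1, the glycogen synthase of muscle, was at 0.69, 1.13, 1.22 and 1.16, and Pygb, a glycogen phosphorylase, at 0.83. Stbd1, which binds glycogen and is not in the list, was at 2.23, 0.98, 1.24 and 1.17. Aldoc, the aldolase of brain, was the lower gene at -1.74, -1.21, -1.46 and -1.29, and its 3 probes averaged -1.54 to -1.21.

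Pairs of related genes were listed with a form known from fetal or non-muscle cells first and a form known from adult muscle second. Few had both members measured, 5 of 30. Each value is a ratio to the mixed adult reference, so a difference does not tell which form is more abundant in heart. The ratio of the first gene lay above that of the second on 4 of 4 arrays for Hmgn2 against Hmgn3 (by 0.57 ± 0.22, SD). For Slc2a1 against Slc2a4, the basal and the insulin-sensitive glucose carriers, it did so on 1 of 4, with a mean difference of -0.19 ± 0.24. Ldha against Ldhb gave -0.19 ± 0.40 and Pfkl against Pfkm 0.14 ± 0.38, so that the spread over arrays was larger than the mean. Hbb-bh1 against Hbb-b1, an embryonic and an adult globin, gave -0.34 ± 0.39 on 3 arrays.

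The middle of the range held genes that every cell uses. Of 57 cytoplasmic ribosome genes 4 were higher (7.02%, below the 13.1% of all genes) and 0 lower, with a median of 0.15 and a span from -0.22 for Rpl13a to 0.45 for Rpl5. Their list medians of -0.10, 0.18, 0.39 and 0.13 had an SD of 0.20 over arrays, larger than the median itself. Of 52 mitochondrial ribosome genes 14 were higher and 0 lower, with a median of 0.14 that is 0.06 without centring. Of 33 translation factors 4 were higher (12.1%, near the 13.1% of all genes) and 0 lower. Of 41 proteasome genes 7 were higher (17.1%, near the 13.1% of all genes) and 2 lower (4.88%). The lowest was Psmb9, an immunoproteasome subunit, at -0.87, -0.61, -1.66 and -1.16. Splicing genes lay somewhat higher, with 18 of 48 higher and 0 lower and a median of 0.28, led by Rbm3 (1.04), an RNA-binding protein induced by cold, and Hnrnpa1 (0.76). The 5 genes nearest to 0 with values on 4 arrays were Coa5, Casc3, Haus3, Bach1 and Cnot9. In Casc3 the arrays still ran from -0.17 to 0.27.

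Of 42 chaperones 5 were higher and 5 lower (11.9% each way), near the 13.1% and 14.4% of all genes. Hspb1 (0.82) and Hspb7 (0.75), small heat shock proteins of muscle, were at the top, and Hspa2, a chaperone of sperm formation, was at the bottom with -1.79, -1.59, -1.73 and -1.68 (mean -1.70, SE 0.08, past the 2-fold test with adjusted p = 0.00452). Hsph1 was at -1.08. The cytoskeleton list ran from Tuba8 (-1.35) and Tuba4a (-0.74) to Flnc (1.30), the filamin of muscle, with 10 of 52 higher and 6 lower. Of 36 lysosome genes 1 was higher (2.78%) and 5 lower (13.9%, near the 14.4% of all genes).

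The lowest ratio of all was that of a testis gene. Of 20 measured testis genes 17 were lower (85.0%, where 14.4% of all genes were) and 0 higher, with a median of -1.25. Tnp1 was at -3.38, -2.94, -3.42 and -3.18. The mean of -3.23 (SE 0.11) means a signal 9.38-fold higher in the reference (adjusted p = 3.06e-05; 0.000241 in the 2-fold test). Smcp, of the sperm mitochondrial capsule, was at -2.83 on 3 arrays, Odf1, of the dense fibres of the sperm tail, at -2.62 and Ropn1, of its sheath, at -2.27. Cby2, a protein of spermatids outside the lists, was at -2.70 on 3 arrays that lay within 0.08 of each other. Prm2, a protamine, was at -2.42, -2.35 and -3.13 but at 0.04 on replicate 3, so that its mean of -1.96 has an SE of 0.44. Odf2 (0.21), Camk4 (-0.02) and Sycp1 (-0.15) did not pass.

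Among the organ lists, that of liver held the most lower genes. Of 45 measured, 42 were lower (93.3%) and 0 higher, with a median of -1.36 and list medians of -1.47, -1.18, -1.07 and -1.59, and 9 passed the 2-fold test. The sign of this list rests on the direction rule, which used plasma protein genes. Hpx, the plasma protein that binds haem, was at -3.13, -2.59 and -2.78 with no value on replicate 3, a signal 7.15-fold higher in the reference. F2, prothrombin, was at -2.47 and Bhmt, an enzyme of methionine metabolism, at -2.70, -2.17, -2.20 and -2.43. Serpina1e, of the alpha-1-antitrypsin cluster and not in the list, was at -2.52 and shares sequence with its paralogs. Hao1 was lower by little (-0.35), and Gstp1 (-0.08) and Itih4 (0.01) did not pass. Ttr, which the choroid plexus also makes, was at -0.69, the highest of the plasma protein genes of the direction rule.

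Of 19 stomach and gut genes 15 were lower and 0 higher, with a median of -1.02. Tff1, a trefoil peptide of gastric mucus, was at -2.96, -2.49 and -2.83 with no value on replicate 3, and Tff2 was at -2.34, -2.12, -2.17 and -2.52. Krt13, a keratin of stratified epithelium, was at -2.34 on 3 arrays. Of 17 lung genes 11 were lower and 0 higher. Scgb1a1, the secretoglobin of airway club cells, was at -2.30, -2.41, -2.58 and -2.88, and Sftpc, the surfactant protein of alveolar cells, had a mean of -2.45 (SE 0.14). Clic5 (0.50) had 1.37 on replicate 1 and 0.00 and 0.15 on the other arrays with a value. The lung list had medians of -0.83, -0.40, -0.72 and -1.39, the widest spread over arrays among the organ lists.

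Of 25 neuron genes 18 were lower and 0 higher, with a median of -0.91, or -0.48 over those with a value on all 4 arrays. Cplx1, which clamps synaptic vesicles, was at -1.79, Sst, the neuropeptide somatostatin, at -1.79, Gad1, the enzyme that makes GABA, at -1.76 and Map2, of dendritic microtubules, at -1.59, each measured on 3 arrays. Uchl1, an abundant neuronal hydrolase, had a mean of 0.00 that joins probes at -0.51, -0.30 and 0.81. Of 10 glia genes 6 were lower and 2 higher. Gpm6b, a proteolipid of myelin, was at -1.86, -1.59, -1.94 and -1.86 (mean -1.81, past the 2-fold test with adjusted p = 0.00392). Mbp, myelin basic protein, averaged -1.31, from probes at -2.39, -1.92, -0.29 and -0.29. The higher genes of this list were Gja1 and Qk (1.02), an RNA-binding protein, which heart also expresses.

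Kidney genes lay below 0 by small amounts. Of 19 measured, 18 lay below 0, with a median of -0.17. Of the 19, 6 were called lower (31.6%, where 14.4% of all genes were) and 0 higher. The lowest was Pdzk1, a scaffold of the proximal tubule, at -1.18, -0.99, -0.54 and -1.19. Calb1, the calcium-binding protein of the distal tubule, was at -0.47, and Cubn, a receptor of the proximal tubule, at 0.00. The difference between organ lists was not tested. Of 14 genes of gonad steroid synthesis and ovary 6 were lower and 0 higher, among them Clu (-1.16), Cyp17a1 (-1.12) and Cyp11a1 (-0.95).

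Immune genes were low as well. Of 12 macrophage markers 10 were lower and 0 higher, and Lyz2, lysozyme of macrophages and neutrophils, was at -1.57, -1.35, -1.57 and -1.57 (mean -1.51, past the 2-fold test with adjusted p = 0.024). Pf4, a chemokine of platelets and resident macrophages, was at 0.03, with 0.72 on replicate 1 and -0.38, 0.16 and -0.38 on the others. Of 8 lymphocyte markers 5 were lower, with Coro1a at -1.62, -1.15, -1.48 and -2.13 and Jchain, of secreted antibodies, at -1.29. H2-Ab1, an MHC class II chain, was at -1.54, while the probes of H2-Aa averaged 0.69 and -1.48 and its mean of -0.14 did not pass. Cma1, a mast cell protease, was higher at 1.46, 0.10, 0.79 and 0.37. Of 16 spleen and B cell genes 10 were lower and 0 higher, of 19 antigen presentation and interferon genes 6 lower and 1 higher, and of 7 neutrophil and mast cell markers 3 lower and 1 higher. Of the 3 measured thymus markers 1 was lower, and of 11 complement and clotting genes of vessel and stroma 3 were higher and 3 lower. Lists of rarer blood cells had few genes with a value: 9 of the 17 lymphocyte markers on the array had a value on under 3 arrays.

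Of 23 measured red cell genes 0 were higher and 5 lower, with a median of -0.06. The globins lay above 0 without passing the test: Hba-a2 at 0.27, 0.89, 0.99 and -0.09, Hbb-b1 at -0.08, 0.76, 0.94 and -0.38, and the embryonic Hba-x at 1.20, 0.50, 0.45 and -0.04. Replicates 2 and 3 were high and replicate 4 low for both adult globins, which share sequence with their gene copies. Car2, a carbonic anhydrase that stomach, kidney and brain also express, was the lowest at -2.05, -1.23, -1.31 and -2.14. Klf1 was at -0.65 and Car1 at -0.58.

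Of 16 genes of cholesterol and lipid synthesis 8 were lower and 0 higher, with a median of -0.31. Scd1, which desaturates fatty acids, was at -1.40, -1.14, -0.31 and -1.19, and Fdft1, squalene synthase, at -0.87, -1.09, -0.92 and -0.83. Of 11 fat genes 3 were lower and 1 higher. Of 26 antioxidant and detoxification genes 14 were lower and 2 higher. Aldh1a1 was at -1.58, Mgst1 at -1.40 and Adh1 at -1.36, enzymes abundant in liver, and the higher genes were Gpx3 (0.53), a secreted peroxidase, and Prdx3 (0.33), of mitochondria. Of 25 stress and hormone response genes 8 were higher and 7 lower, from Nupr1 (-0.61) and Mt2 (-0.54), a metallothionein, to Gadd45g (0.59) and Klf6 (0.56). This list showed no common direction.

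**Figure D5:**
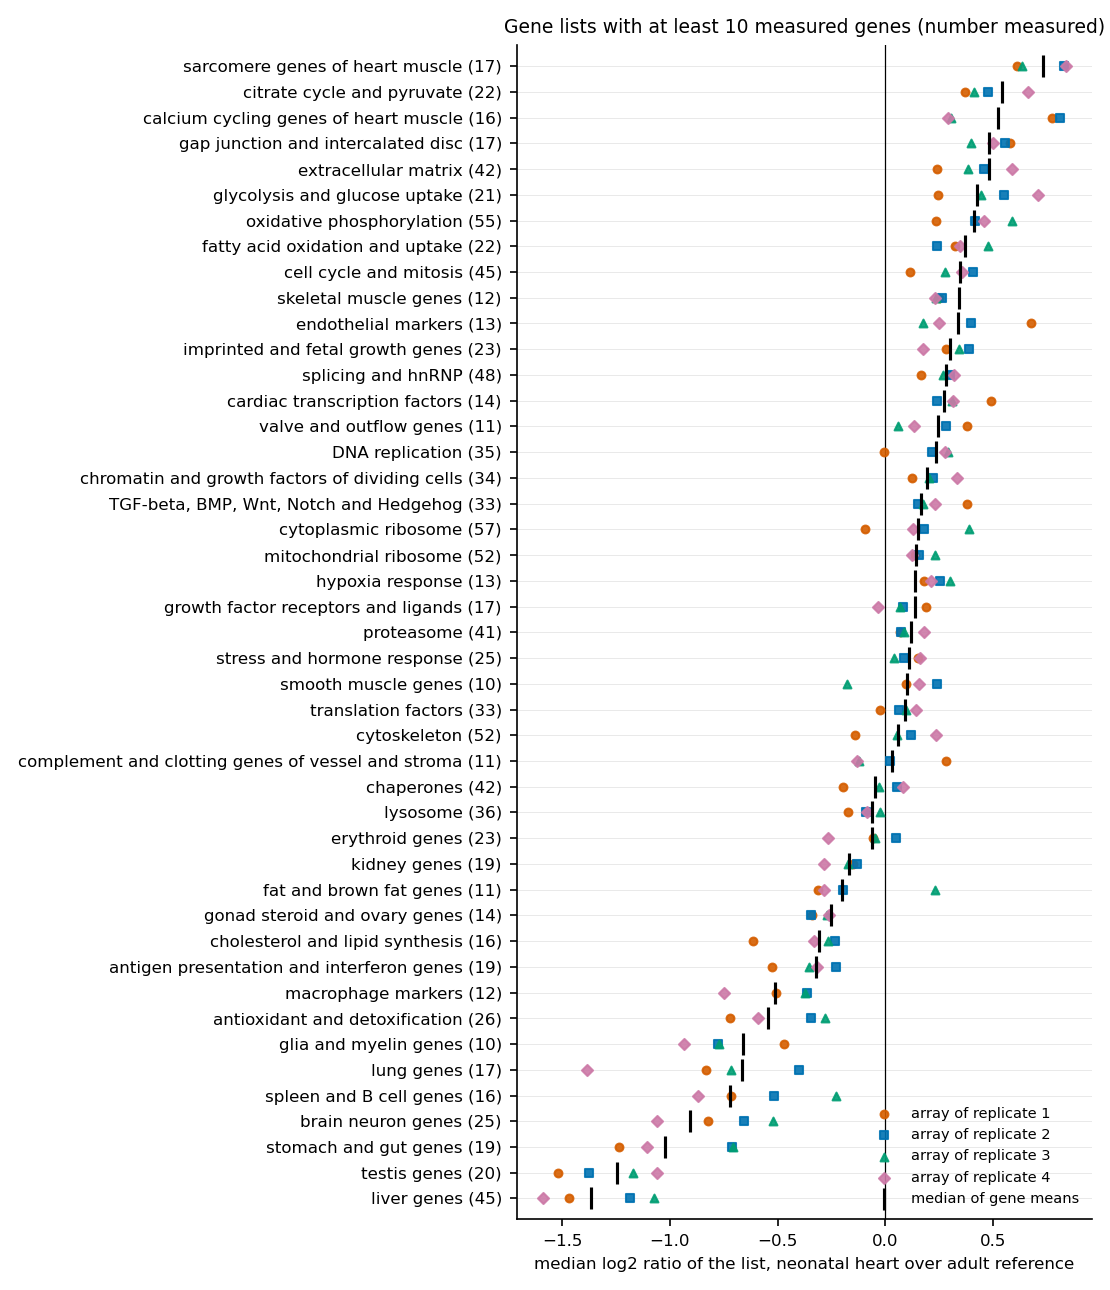
Median log2 ratio of neonatal heart over adult reference (horizontal axis) for the gene lists with at least 10 measured genes (vertical axis, number measured in brackets). Coloured points are the list's median on each array and black bars the median of the gene means. Sarcomere genes (0.73) stand at the top and liver (-1.36) and testis genes (-1.25) at the bottom, and the 4 arrays keep the same side of 0 at both ends.

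Several of the highest genes belonged to none of the groups above. Nnt, which makes NADPH in mitochondria and is known to be deleted in part in some C57BL substrains, was at 2.00, 0.87, 1.08 and 1.45, a mean of 1.35 (SE 0.17, adjusted p = 0.00181). Ppp1r14c, an inhibitor of protein phosphatase 1, was at 1.97, 1.29 and 1.25 with no value on replicate 3. Pdzrn3, a ubiquitin ligase, was at 2.30, 1.07, 0.68 and 1.49. In these genes replicate 1 was the highest array, and it gave the widest spread of ratios. Sorbs2, an adaptor at the Z-disc, had close arrays at 1.46, 1.37, 1.20 and 1.24. Nnt and Sorbs2 were chosen after their values were seen.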

How the data were processed

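Spots on 2-colour cDNA arrays of total RNA had been given 1 log ratio of both dyes by the authors, and the deposited values were taken as log2: of 16089700 differences between spots within blocks of 598 rows, 3583 were logs of ratios of whole numbers up to 120 in base 2, 146 in base e and 395 in base 10, within 1.5e-09. What scanner and software were used, and how spots were corrected, filtered and scaled, is not given in the sources used here. Of 28704 probes, 18511 have 1 gene symbol in the platform annotation, which can be old, and were used, 937 have several and 9256 are unnamed here. Values were centred per array on its median and averaged per gene, and 4321 of the 8174 genes joined several probes. Between the first 2 probes of 3300 genes, Pearson r was 0.61 and signs were opposite in 30.1%, or in 12.1% of the 149 genes with either beyond 1.

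Genes were tested against 0 and against a 2-fold change with limma 3.58.1 in R 4.3.3 (lmFit, eBayes, treat), with Benjamini-Hochberg adjustment over all genes and a threshold of 0.05, and the scripts were tested on simulated data. Members, gene lists and motifs were chosen with earlier results of these data known, and 3 lists were added after the values were seen. Lists are described by counts and medians, without a set test. Named genes were the 15 highest and 15 lowest called genes with every array on 1 side of 0. Also named were the 3 highest and 3 lowest members of a list, both genes of related pairs and the 5 genes nearest to 0. Not all were printed, and others were named after their values were seen. These include Airn, Meg3, Peg3, Ccna2, Cdk1, Igf2, Igf2r, Plagl1 and Atp2a2. Alternatives covered centring, scaling, filters on arrays and probes, the summary over probes, the variance model, array weights and leaving out each array.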

Additional observations from a re-analysis of the deposited data

Results flagged for a closer look

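In 229 sets of 4 values (genes named above, gene lists and array measures), 13 had 1 array whose gap to its nearest neighbour exceeded the Dixon limit of the set's range. Chance alone flags about 1 in 20 such sets. The array that stood apart was replicate 1 in 7 sets and replicates 2, 3 and 4 in 2 sets each. Replicate 1 was high in Mest (3.36 against 2.46 to 2.59) and Chrna1 (1.40 against -1.74 to -1.22). It was low in Eln (0.50 against 1.35 to 1.49), Col1a2 (0.47 against 0.99 to 1.09), Mef2c (-0.13 against 0.03 to 0.05), Mfap4 (-0.34 against -0.03 to -0.01) and Pla2g1b (-3.15 against -2.38 to -2.29). Replicate 2 was low in Sox4 (0.56 against 1.28 to 1.38) and the least low in Lyz2 (-1.35 against -1.57 on each of the others). Sox4 had a value only on its lower probe there, which read 0.86, 0.56, 1.29 and 1.32. Replicate 3 was low in Igf2 (0.68 against 1.09 to 1.16) and Pdlim5 (0.45 against 1.24 to 1.37). The Igf2 value there alone averages in a further probe (0.14), and the 2 probes measured on all arrays gave 2.13 and -0.22 on it. Replicate 4 was low in Gstp1 (-0.49 against 0.01 to 0.07) and high in Ldhb (0.76 against 0.57 to 0.60).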

How the results depend on the processing

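Dye bias, the 1 reference preparation and unknown signal intensity limit what the ratios show. Calls depended on the centring and on single arrays. Without centring, 217 genes were higher and 2 were more than 2-fold higher. Leaving out 1 array gave 407 to 1207 higher, 560 to 1344 lower, 4 to 7 more than 2-fold higher and 40 to 81 more than 2-fold lower genes. At an adjusted p of 0.01 (limma), 350 genes were higher and 550 lower. Single probes gave 2228 higher, 1890 lower and 22 more than 2-fold higher. With a trend in the prior variance, 0 genes were more than 2-fold higher and 16 more than 2-fold lower. Only genes with a value on all 4 arrays gave 45 more than 2-fold lower and a median of -0.48 for neuron genes. The probe with the fewest missing values gave 12 genes more than 2-fold higher, medians of 0.96 for sarcomere and 0.28 for matrix genes, and turned H2-Aa from -0.14 to 0.69. The cause was not tested, beyond the fewer genes and arrays in some settings. List medians near 0 changed sign: smooth muscle (-0.02 without replicate 2), chaperones (0.02 without replicate 1), cytoskeleton (-0.02 without centring, 0.00 without replicate 4), erythroid genes (0.04 without replicate 4), vessel clotting genes (-0.05 without centring, 0.00 with quantile normalization, -0.08 without replicate 1) and growth factor genes (-0.02 without centring). Of the genes named, 31 lost their call without centring, 3 without replicate 1, 23 without replicate 2, 17 without replicate 3 and 24 without replicate 4. No paired analysis was possible because the comparison has 1 group of samples.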

Other observations

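Among the lowest genes were groups outside the tissue lists, and 3 lists were made after seeing them, so their counts are descriptions only. Pancreas is not among the tissues the labels name, yet 6 of 7 measured genes of its digestive enzymes were lower, with a median of -2.08. Clps, the cofactor of pancreatic lipase, was at -3.16, -2.53, -2.73 and -2.68, Pla2g1b, a pancreatic phospholipase, at -3.15, -2.29, -2.33 and -2.38, and Amy1, an amylase, at -2.03, -1.98, -1.90 and -2.43. Try4, a trypsin with near copies, was at -2.54 on 3 arrays, and Pnliprp1 (0.27) did not pass.

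Genes of squamous epithelium had a median of -0.87, with 12 of 18 lower. Sprr2a1, of the cornified envelope and one of a family of near copies, was at -2.74 and Ly6d at -2.48, each on 3 arrays. Genes of motile cilia and sperm tails had a median of -1.17, with 10 of 14 lower, from Kif9 at -1.45 to Ak7, which was higher at 0.67.

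By chromosome, median ratios lay between -0.04 (chromosome 9) and 0.09 (chromosome X, 241 genes). The X chromosome had the highest median of 20 chromosomes on each array, at 0.13, 0.11, 0.08 and 0.06, small beside the quartiles of -0.21 and 0.21 over all genes.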
